A study of Homo sapiens with 10 samples.

Results

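The 37 genes of the human mitochondrial genome were followed through RNA-seq libraries of HAP1 cells. They were chosen as every row of the count tables whose symbol starts with MT-, which gave 37 of 59453 genes: 13 protein-coding (mRNA), 22 tRNA and 2 rRNA genes. These cells are a human line with close to 1 copy of each chromosome that was established from KBM-7, a leukaemia line. Untreated libraries came from 2 clones of each genotype: WT (clones 2 and 11), MUTYH knockout (MUTYH-/, clones 7 and 8), OGG1 knockout (OGG1-/, clones 1 and 22) and the double knockout of both genes (DKO, clones 4 and 14). The knockouts were made with CRISPR-Cas9 in the WT background, and per the study's list of clones both DKO clones descend from its second OGG1 knockout clone, which by its catalogue name is clone 22, so the DKO clones share 1 OGG1 edit. The remaining 2 libraries came from WT clones 2 and 11 exposed to H2O2 at 100 µM and collected 24 hours later. Each clone gave 1 library per condition.

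Mitochondrial DNA is a small circle that is transcribed from both strands into long precursor RNAs. Most genes are read from the heavy strand, while MT-ND6 and a minority of tRNAs are read from the light strand. The tRNAs lie between the other genes, and their excision by nuclease releases most mRNAs and rRNAs. The mRNAs encode subunits of the respiratory chain and ATP synthase, and the rRNAs and tRNAs serve the mitochondrial ribosome that translates them. OGG1 and MUTYH are DNA glycosylases that act on 8-oxoguanine and on adenine mispaired with it, in nuclear and mitochondrial DNA.

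Total counts per library ranged from 22225091 to 22674964, and levels are given as CPM, the count scaled to the library total, or as CPM per kilobase of gene where genes are compared. BCR (23.4 to 30.2 CPM) and ABL1 (20.5 to 32.5 CPM), the genes fused in this line, were detected in every library, and of the blood lineage markers PTPRC, SPI1 and CD3E did not exceed 0.13 CPM and CD34 did not exceed 1.03 CPM. Transcripts of the edited genes were still counted. MUTYH had 50 to 119 counts in all libraries, and OGG1 had 27 counts in OGG1 knockout clone 1 and 215 to 331 counts in the others, so transcript levels do not check most of the labels.

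The mitochondrial genome has near-identical copies in the nuclear genome, and their reads cannot all be told apart. The table lists 415 rows named as nuclear copies of mitochondrial genes, of which 326 had no count in any library and 9 exceeded 20 counts in a library. A stretch of chromosome 1 holds copies of MT-ND1 to MT-CO3 whose bases match the mitochondrial genes at 97.6% to 98.9% of aligned positions. The start of MT-ND2 and of its copy is shown because the 120 bases do not differ, and the start of MT-CO2 and of its copy because it holds 2 differences, in capitals (GRCh38, + strand, chrM:4470-4589, chr1:629640-629759, chrM:7586-7705 and chr1:632757-632876).
MT-ND2: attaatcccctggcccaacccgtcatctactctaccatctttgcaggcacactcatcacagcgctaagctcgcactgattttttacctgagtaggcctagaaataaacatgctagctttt
MTND2P28: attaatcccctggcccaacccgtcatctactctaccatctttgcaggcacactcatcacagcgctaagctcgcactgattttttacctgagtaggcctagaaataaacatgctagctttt
MT-CO2: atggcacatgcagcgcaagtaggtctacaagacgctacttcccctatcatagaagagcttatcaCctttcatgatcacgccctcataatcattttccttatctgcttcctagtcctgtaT
MTCO2P12: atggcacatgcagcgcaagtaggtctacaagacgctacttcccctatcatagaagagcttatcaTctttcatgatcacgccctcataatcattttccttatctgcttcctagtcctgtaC

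Several copies took a nearly constant share of counts relative to their gene. MTND2P28 held 22.9% to 27.7% as many counts as MT-ND2 over the 10 libraries. MTATP6P1 held 15.2% to 17.3% as many as MT-ATP6, and MTCO1P12 held 12.8% to 13.5% as many as MT-CO1. These shares stayed within narrow bounds while the counts themselves moved, with 12658 to 38403 counts for MTCO1P12. MTCO2P12, which has 12 differences over 682 aligned bases and no identical run longer than 108 bases, held 0.160% to 0.342% as many counts as MT-CO2. The longest identical run was 266 bases for MT-ND2, 245 for MT-CO1 and 141 for MT-ATP6. MTND1P23 has a run of 157 bases and held 2.14% to 3.31% as many counts as MT-ND1. It aligns over only 371 of the 956 bases of MT-ND1, so its share of the whole gene is not a like comparison. The copy of MT-CO3 is partial too, with 547 aligned bases of 784. The level of MT-ND2, MT-CO1 and MT-ATP6 is therefore uncertain by the part given to the copies, and the way reads with several alignments were counted is not given in the sources used here.

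**Figure D1:**
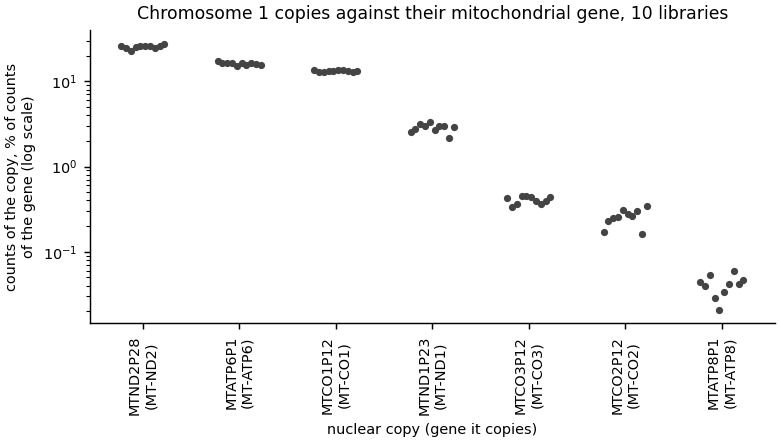
Counts of 7 chromosome 1 copies as a percentage of the counts of the mitochondrial gene they copy (y axis, log scale), with 1 point for each of the 10 libraries. The copies of MT-ND2, MT-ATP6 and MT-CO1 lie between 12.8% and 27.7% in every library, the copy of MT-ND1 lies between 2.14% and 3.31%, and the copies of MT-CO3, MT-CO2 and MT-ATP8 do not exceed 0.456%.

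In untreated cells the 37 genes took 3.75% to 7.46% of all counts. The 13 mRNA genes held 88.3% to 92.8% of these counts, the 2 rRNA genes 6.92% to 11.2% and the 22 tRNA genes 0.299% to 0.516%. A list of 28 nuclear genes for short or non-polyadenylated RNAs summed to 10.0 to 17.9 CPM in the 10 libraries, and RN7SK had no count in any of them. Whether poly(A) RNA was selected is not given in the sources used here, and its part in the class shares was not tested.

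Per kilobase, the mRNAs were the most abundant class and the tRNAs covered the widest range. MT-CO3, a subunit of cytochrome c oxidase (complex IV), was highest with a mean of 8932 CPM per kilobase over the 8 untreated libraries (range 6259 to 11885). MT-CO1, the catalytic subunit of that complex, followed at 6189 (4021 to 8288) and MT-CO2, which receives electrons from cytochrome c, at 5074 (3334 to 7263). MT-CO3 was above MT-CO1 in 7 of 8 libraries, whereas MT-CO1 was above MT-ATP6 in only 3 of 8, so those neighbours do not hold an order. The ATP synthase subunits MT-ATP6 and MT-ATP8, whose frames overlap by 46 bases on 1 transcript, had means of 5876 (4172 to 8495) and 4122 (2811 to 5812) CPM per kilobase.

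The subunits of complex I, the NADH dehydrogenase, fell into high and low members. MT-ND4 had a mean of 5258 CPM per kilobase (3742 to 7471), and MT-ND4L, which overlaps it by 7 bases, had 3744 (2801 to 5264). MT-ND1 had 3882 (2096 to 5730) and MT-ND2 had 3866 (2181 to 6066), and MT-ND1 was the higher in 4 of 8 libraries. MT-ND3 followed at 2512 (1453 to 3655), and MT-ND5 had 1399 (995 to 1995). MT-ND6, the only mRNA of the light strand, was lowest with 1266 CPM per kilobase (900.4 to 1749) and was below MT-ND5 in 7 of 8 libraries. MT-CYB, the only complex III subunit encoded here, had 2880 (2034 to 3908).

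Of the rRNAs, MT-RNR2, the large-subunit rRNA, had a mean of 2370 CPM per kilobase (1360 to 3652), inside the range of the mRNAs. MT-RNR1, the small-subunit rRNA, had 1153 (569.7 to 1791), below the mean of MT-ND6, the lowest mRNA. Both are cut from the start of the heavy-strand precursor, and the counts of MT-RNR2 were 2.32 to 5.40 times those of MT-RNR1.

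**Figure D2:**
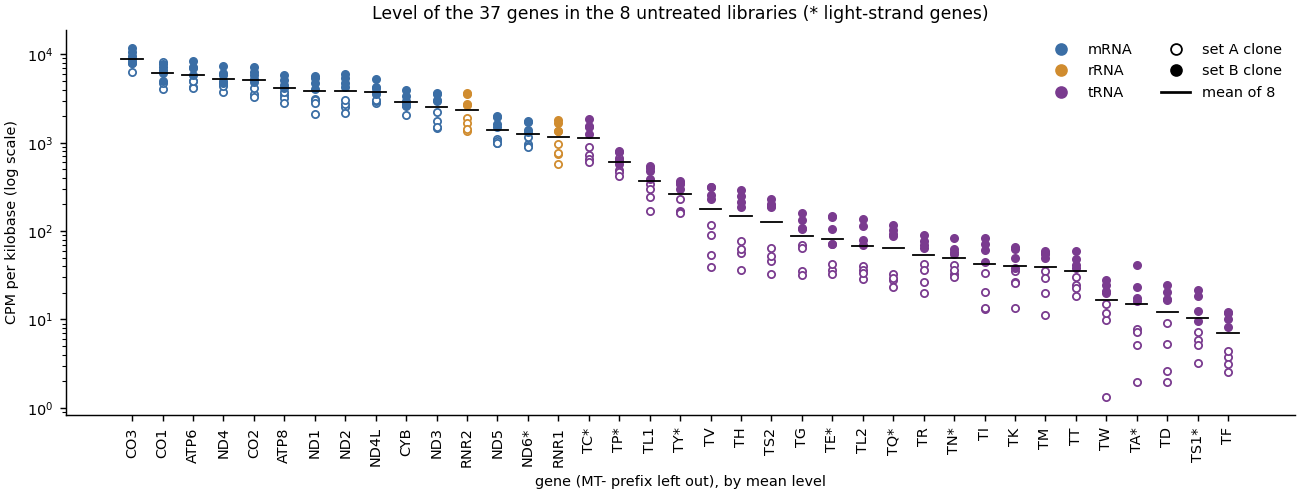
Level of each of the 37 genes in CPM per kilobase (y axis, log scale) in the 8 untreated libraries, ordered by mean, with a line at the mean, colours for the 3 classes, open points for 1 clone of each genotype (WT 2, MUTYH knockout 8, OGG1 knockout 22, DKO 14) and filled points for the other (WT 11, MUTYH knockout 7, OGG1 knockout 1, DKO 4). The mRNAs lie above most tRNAs, and the open points lie below the filled points for most tRNAs.

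The highest tRNAs per length were MT-TC, MT-TP, MT-TL1, MT-TY and MT-TV, the tRNAs for cysteine, proline, leucine, tyrosine and valine. They are shown with MT-TH and MT-TS2, the tRNAs for histidine and serine that lie side by side after MT-ND4, with the anticodon in capitals (GRCh38, chrM:5761-5826, 15956-16023, 3230-3304, 5826-5891, 1602-1670, 12138-12206 and 12207-12265, in gene sense). MT-TC, MT-TP and MT-TY are read from the light strand.
MT-TC: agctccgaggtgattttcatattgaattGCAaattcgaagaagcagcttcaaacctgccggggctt
MT-TP: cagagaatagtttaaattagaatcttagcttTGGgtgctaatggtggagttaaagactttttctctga
MT-TL1: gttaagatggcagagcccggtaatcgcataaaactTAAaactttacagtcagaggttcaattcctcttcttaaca
MT-TY: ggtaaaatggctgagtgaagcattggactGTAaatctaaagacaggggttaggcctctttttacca
MT-TV: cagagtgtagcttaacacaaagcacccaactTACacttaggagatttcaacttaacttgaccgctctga
MT-TH: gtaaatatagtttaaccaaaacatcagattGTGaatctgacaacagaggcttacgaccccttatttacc
MT-TS2: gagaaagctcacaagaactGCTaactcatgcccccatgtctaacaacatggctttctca

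MT-TC had a mean of 1133 CPM per kilobase (611 to 1837), MT-TP 609 (417 to 811), MT-TL1 371 (169 to 543), MT-TY 263 (159 to 373) and MT-TV 177 (38.9 to 318). The first 4 held 64.3% to 84.1% of all tRNA counts of an untreated library, and the 8 light-strand tRNAs held 60.3% to 73.9%. The other tRNAs were low. MT-TF had the lowest mean, 7.0 CPM per kilobase, and MT-TW had as few as 2 counts in WT clone 2 (95% Poisson interval 0.242 to 7.22, for counting error only). The tRNA genes are 59 to 75 bases long, and a count cannot say whether a read came from a mature tRNA or from a longer precursor that spans it. Here, for MT-ND6 and below, strand means that of the annotated gene. Whether reads from the opposite strand were counted in a gene is not given in the sources used here. Values by strand are therefore not measures of transcription from that strand.

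The clones of a genotype differed widely in these genes. WT clones 2 and 11 had 5.02% and 5.14% of their counts in the 37 genes. MUTYH knockout clones 8 and 7 had 3.75% and 6.10%, OGG1 knockout clones 22 and 1 had 4.38% and 6.59%, and DKO clones 14 and 4 had 4.25% and 7.46%. In each knockout pair the clone named second was clearly the higher, whereas the WT clones were close in this total.

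The pattern of clone differences in other genes gave a way to order the clones. Over 11826 genes other than the 37, the log2 difference between WT clones 11 and 2 was compared with that of each knockout pair, and the pair was ordered so that Pearson's r across genes was positive. This gave r of 0.517 for MUTYH knockout (7 over 8), 0.457 for OGG1 knockout (1 over 22) and 0.388 for DKO (4 over 14), with genes that are not independent replicates. Set A therefore denotes WT 2, MUTYH knockout 8, OGG1 knockout 22 and DKO 14, and set B denotes WT 11, MUTYH knockout 7, OGG1 knockout 1 and DKO 4. The sets are read from the data and are not labelled groups, so the differences between them are given with no test.

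Most mitochondrial genes were higher in the set B clone of each genotype, and the tRNAs had the largest folds. Counts are relative to the library, so less mitochondrial RNA and more of other RNA cannot be told apart here or in the comparisons that follow. The set B clone was the higher in 31 of 37 genes in WT, where 49.2% of the 11826 other genes were higher. It was the higher in 37 of 37 genes in MUTYH knockout (38.8% of other genes), 36 of 37 in OGG1 knockout (46.0%) and 37 of 37 in DKO (43.7%). As the mean of the 4 genotypes, the median fold of B over A was 2.68 for tRNAs, 2.02 for rRNAs and 1.49 for mRNAs. In the H2O2-treated WT pair clone 11 was the higher in 21 of 37 genes, where 54.4% of other genes were. Among the tRNAs of untreated clones the median fold was 2.86 for those of the heavy strand and 2.36 for those of the light strand, and MT-ND6 stood at 1.56.

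The 5 largest mean folds were in tRNAs, 4.52 for MT-TD, 4.43 for MT-TA, 4.23 for MT-TS2, 4.11 for MT-TH and 4.01 for MT-TV. MT-TD, for aspartate, had 4, 14, 8 and 3 counts in the set A clones of WT, MUTYH knockout, OGG1 knockout and DKO, and 26, 25, 31 and 37 counts in the set B clones. MT-TA, for alanine, had 3, 12, 11 and 8 counts in set A and 25, 27, 36 and 63 in set B. Counts as low as these carry a wide counting error. MT-TS2 had 43, 85, 60 and 69 counts in set A and 244, 253, 263 and 300 in set B. MT-TH had 56, 120, 87 and 97 counts in set A and 328, 286, 386 and 449 in set B. MT-TV had 83, 182, 60 and 140 counts in set A and 397, 355, 478 and 488 in set B. For these 5 tRNAs the sets did not overlap, which their choice by largest fold favoured. Other tRNAs did the same, such as MT-TQ with 38 to 53 counts in set A and 141 to 186 in set B. The share of all genes without overlap between the sets was not counted. MT-TP, on the opposite strand at the end of the gene map, differed least among the tRNAs, with a fold of 1.39.

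Among the mRNAs the difference was smallest for MT-CO1, whose mean fold was 1.13, and largest for MT-ND2 at 1.94 and MT-ND3 at 1.92. MT-CO1 was in fact higher in the set A clone of WT (12779 against 7654 CPM) and of OGG1 knockout (10211 against 9397 CPM). WT clone 2 and OGG1 knockout clone 22 also stood apart in the balance between mRNAs. Their counts of MT-CO1 were 4.82 and 4.49 times those of MT-ND2, against 1.68 to 2.29 times in the other 6 untreated libraries. Their counts of MT-CYB were 6.11 and 6.20 times those of MT-ND3, against 2.996 to 3.86 times in the others.

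**Figure D3:**
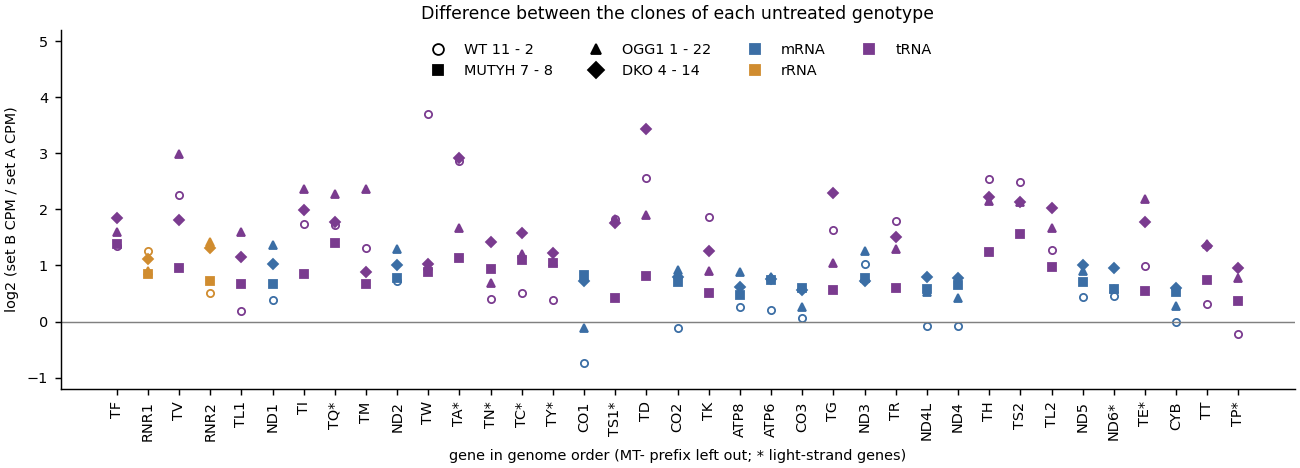
Log2 difference in CPM between the set B and the set A clone of each genotype (y axis) for each of the 37 genes, with 1 point per genotype and the genes in map order. Most points lie above 0, and tRNA points reach further above 0 than mRNA points, whose median is 1.49-fold as the mean of the 4 genotypes.

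Whether loss of either glycosylase changed mitochondrial RNA was tested against WT over the 8 untreated libraries. None of the 37 genes passed the test in any comparison of genotypes. The study's criterion was a P of at most 0.05 with a log2 fold change beyond 1, and edgeR's quasi-likelihood test called 0 of 37 genes in MUTYH knockout, where it called 1.19% of 17881 genes. It called 0 of 37 in OGG1 knockout (1.67% of all genes), in DKO (1.77%), in DKO against OGG1 knockout (1.44%) and in the interaction of OGG1 and MUTYH loss (2%). With P alone, at 0.05, 0 of 37 were called in these 5 comparisons by edgeR and by DESeq2, where edgeR called 1.72%, 2.74%, 2.94%, 2.62% and 2.62% of all genes. At an adjusted p of 0.05 edgeR again called 0 of 37, where it called 0.00559% of all genes (1 gene) in MUTYH knockout and in the interaction and 0 in the others. The smallest P among the 37 genes was 0.284, for MT-TA in DKO, with an adjusted p of 1.00.

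The log2 fold change was above 0 in 30 of 37 genes in MUTYH knockout (53% of all genes), 31 in OGG1 knockout (52.6%) and 35 in DKO (50.2%), comparisons that share the WT libraries. The 37 genes share precursor RNAs and mostly moved together between clones. Throughout, numbers of them in 1 direction are therefore not counts of independent genes. The summed share of counts did not follow these numbers of genes in MUTYH knockout, where the 37 genes took 4.93% on average against 5.08% in WT, a mean log2 difference of -0.086. That difference was 0.081 in OGG1 knockout and 0.15 in DKO. The median for mRNAs was 0.05 in MUTYH knockout, 0.17 in OGG1 knockout and 0.29 in DKO, against 0.01, 0.01 and 0.00 over all genes. The median for tRNAs was 0.23, 0.28 and 0.39, and that for rRNAs 0.08, 0.34 and 0.24. These medians do not hold when a clone is left out, and the DKO median for mRNAs ran from -0.17 without clone 4 to 0.61 without clone 14.

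Single mRNAs showed the same overlap of clones. In DKO, MT-ND2 had 6320 and 3156 CPM in clones 4 and 14, against 2651 and 4397 CPM in WT clones 2 and 11, a log2 fold change of 0.44 (SE 0.55). MT-CO1 had 11892 and 7232 CPM in DKO, against 12779 and 7654 CPM in WT, a log2 fold change of -0.08 (SE 0.40). In OGG1 knockout, MT-CO3 had 8331 and 6979 CPM against 6205 and 6499 CPM in WT, and MT-CYB had 3877 and 3200 CPM against 3071 and 3056 CPM. MT-CO3 and MT-CYB were the only 2 of 37 genes whose OGG1 knockout and WT clones did not overlap, where 11.6% of all genes lay above WT in that way and 13.7% below. For MUTYH knockout, DKO and DKO against OGG1 knockout the groups overlapped for all 37 genes, where 8.15%, 12.8% and 12.8% of all genes lay wholly above and 13.1%, 13% and 11.5% wholly below.

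Compared within a set, the summed share of the 37 genes, most of which is mRNA, lay on opposite sides of WT. In set A the share of the 37 genes was lower than in WT clone 2, by -0.42 on the log2 scale in MUTYH knockout, -0.20 in OGG1 knockout and -0.24 in DKO. In set B it was higher than in WT clone 11, by 0.25, 0.36 and 0.54. All 13 mRNAs were higher in each knockout of set B, whereas 2, 4 and 4 of 13 were higher in MUTYH knockout, OGG1 knockout and DKO of set A. The tRNAs of set A did not follow, with 16 of 22 higher in MUTYH knockout (median log2 0.98), 11 in OGG1 knockout and 13 in DKO. Of all 37 genes, 19, 16 and 18 were higher in set A and 28, 35 and 37 in set B. Each of these numbers sets 1 library against 1 library, and the share of all genes higher within a set was not counted. The summed share was close in WT clones 2 and 11 (5.02% and 5.14%), so its opposite directions restate the spread between the knockout clones. With the set as a block, edgeR gave a P of at most 0.05 for 1 of 37 genes in MUTYH knockout (4.46% of all genes), 2 in OGG1 knockout (7.18%) and 4 in DKO (7.32%), all higher, and for 0 in DKO against OGG1 knockout (7.58%) and 1, MT-RNR1, in the interaction (7.02%). The smallest adjusted p among them was 0.58.

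**Figure D4:**
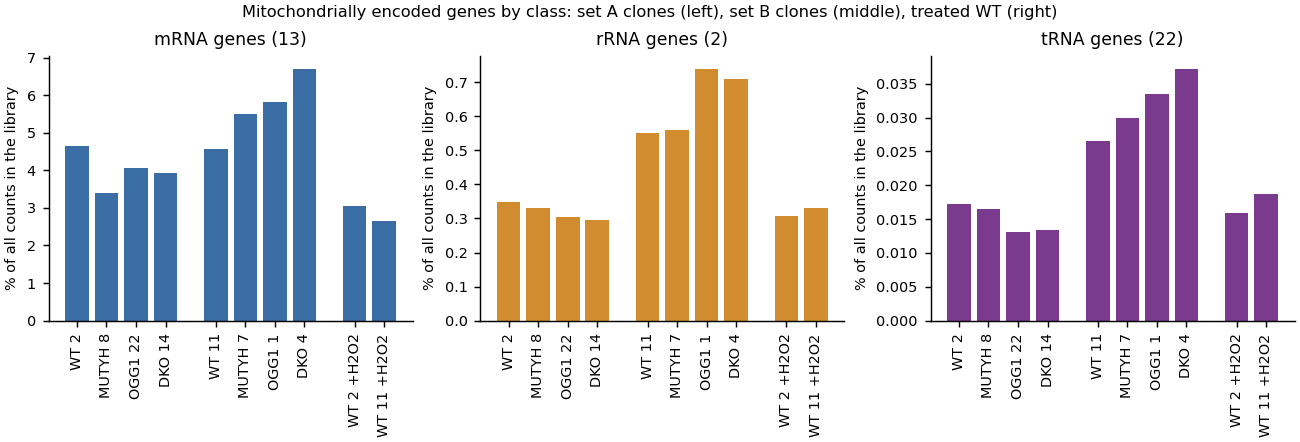
Share of all counts taken by mRNA, rRNA and tRNA genes in each of the 10 libraries (y axis, percent), with 1 bar per library, set A clones on the left, set B clones in the middle and H2O2-treated WT clones on the right of each panel. The set B clone lies above the set A clone of each knockout for all 3 classes, and the H2O2-treated WT libraries lie lowest for mRNAs.

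After H2O2, mitochondrial mRNAs were lower in both WT clones. The untreated WT libraries are those of the genotype comparisons. Whether they were grown and sequenced together with the treated ones is not given in the sources used here. An effect of H2O2 therefore cannot be told apart from another difference that the 2 treated libraries share. The 37 genes took 3.38% of counts in treated clone 2 and 2.995% in treated clone 11, against 5.02% and 5.14% untreated, which is 67.3% and 58.3% of the untreated share. All 13 mRNAs were lower in both clones, with a median log2 fold change of -0.65, against 0.00 over all 16997 genes tested and 50% of genes lower. The median was -0.49 for the 2 rRNAs and -0.22 for the 22 tRNAs. The treated values lay below both untreated values for 11 of 13 mRNAs, for MT-RNR2 of the rRNAs and for MT-TC and MT-TP of the tRNAs, where 22.4% of all genes did so. None of the 37 lay above both untreated values, where 18.8% of all genes did.

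Without regard to clone, edgeR gave a P of at most 0.05 for 11 of 37 genes, all lower, where 4.07% of all genes were called lower in this way. They were 10 mRNAs and MT-TP. None reached the study's criterion, which 1.75% of all genes did, and each had an adjusted p of 0.638, where 0 of 16997 genes reached 0.05 and 1297 genes (7.63%) passed a P of 0.05 without adjustment in either direction. Since the same 2 clones were treated and untreated, clone was also fitted as a replicate block. The blocked fit gave a P of at most 0.05 for 18 genes, all lower (10.5% of all genes), and an adjusted p of at most 0.05 for the same 11 genes as above, all lower (1.39% of all genes). Without the block, DESeq2 gave an adjusted p of at most 0.05 for 6 of 37 genes, all lower (0.194% of all genes).

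The complex IV mRNAs fell in the blocked fit. MT-CO1 had 12779 and 7654 CPM in untreated clones 2 and 11 and 6729 and 4210 CPM after H2O2, a log2 fold change of -0.87 (SE 0.13, adjusted p = 0.0058). Without untreated clone 2 the unblocked value of MT-CO1 was -0.46, against -0.88 with all libraries. MT-CO2 had 3635 and 3343 CPM untreated and 2677 and 1983 CPM treated (-0.58, SE 0.14, adjusted p = 0.043). MT-CO3 had 6205 and 6499 CPM untreated and 4011 and 3564 CPM treated (-0.73, SE 0.13, adjusted p = 0.017). Each of the 3 was lower in both treated clones than in either untreated clone.

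The ATP synthase and complex III mRNAs fell by a similar size. MT-ATP6 had 3431 and 3951 CPM untreated and 2404 and 2317 CPM treated (-0.62, adjusted p = 0.030 with the block). MT-ATP8 had 719 and 864 CPM untreated and 537 and 478 CPM treated (-0.62, adjusted p = 0.038). MT-CYB had 3071 and 3056 CPM untreated and 2062 and 1780 CPM treated (-0.66, adjusted p = 0.022). In these genes the 2 untreated values were close to each other, as were the 2 treated values.

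Of the complex I mRNAs, MT-ND4L, MT-ND4, MT-ND5 and MT-ND6 fell in the blocked fit. MT-ND4L had 1119 and 1064 CPM untreated and 666 and 658 CPM treated, and MT-ND4, which shares its transcript, had 6922 and 6512 CPM untreated and 4149 and 3837 CPM treated, both with an adjusted p of 0.014 in the blocked fit. MT-ND5 had 1989 and 2708 CPM untreated and 1259 and 1683 CPM treated (-0.65, adjusted p = 0.020). The light-strand mRNA MT-ND6 had 511 and 697 CPM untreated and 313 and 375 CPM treated (-0.78, SE 0.13, adjusted p = 0.0087). MT-ND6 was at 61.1% and 53.8% of its untreated level in clones 2 and 11, and the 12 heavy-strand mRNAs together were at 65.7% and 58.0%.

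MT-ND1, MT-ND2 and MT-ND3 had adjusted p-values of 0.18, 0.19 and 0.23 in the blocked fit. MT-ND1 had 2983 and 3879 CPM untreated and 2814 and 2183 CPM treated. MT-ND2 had 2651 and 4397 CPM untreated and 2465 and 2698 CPM treated, and MT-ND3 had 503 and 1020 CPM untreated and 466 and 692 CPM treated. In clone 2 these 3 mRNAs stayed at 94.3%, 93.0% and 92.7% of the untreated level, whereas MT-CO1 was at 52.7% and MT-ND4 at 59.9%. That contrast rests on the 1 untreated library of clone 2, whose balance of mRNAs stood apart. Its MT-CO1 counts were 4.82 times those of MT-ND2, and 2.73 times after H2O2. The ratio was 4.49 in OGG1 knockout clone 22 and 1.68 to 2.29 in the remaining untreated libraries. In clone 11 all 13 mRNAs lay between 53.8% and 67.8%.

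The rRNAs and tRNAs differed between the clones. MT-RNR1 had 543 and 1306 CPM untreated and 484 and 783 CPM treated, and MT-RNR2 had 2935 and 4191 CPM untreated and 2594 and 2525 CPM treated. Both rRNAs were at about 88% to 89% of untreated in clone 2 and at about 60% in clone 11, with adjusted p-values of 0.14 in the blocked fit. The tRNAs together were at 92.4% in clone 2 and 70.5% in clone 11. In clone 2, 15 of 22 tRNAs were higher after H2O2, and in clone 11, 20 of 22 were lower, the exceptions being MT-TA and MT-TE, where 55.9% and 49.2% of all genes were lower. Heavy-strand tRNAs were at 129% of untreated in clone 2 and 72.6% in clone 11, and light-strand tRNAs at 79.5% and 69.1%.

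MT-TP, MT-TC and MT-TQ had a P of at most 0.05 in the blocked fit, and of these MT-TP reached an adjusted p of 0.05. It had 45.8 and 39.4 CPM untreated and 30.0 and 24.2 CPM treated (-0.64, SE 0.13, adjusted p = 0.028 in the blocked fit). MT-TC had 58.3 and 82.7 CPM untreated and 45.4 and 55.6 CPM treated, with an adjusted p of 0.086. MT-TQ, for glutamine, had 45 and 150 counts untreated and 26 and 101 treated (-0.65, SE 0.27, adjusted p = 0.20). MT-TL1 had 25.4 and 29.1 CPM untreated and 32.6 and 20.8 CPM treated, so its clones moved in opposite directions, as did those of MT-TY (15.4 and 20 CPM untreated, 17.9 and 16 CPM treated). MT-TV had 3.7 and 17.8 CPM untreated and 7.1 and 13.2 CPM treated. The untreated library of clone 2 had few tRNA counts, 3848 in all with 5 tRNA genes under 10 counts, so ratios of single low tRNAs to it carry a wide counting error.

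**Figure D5:**
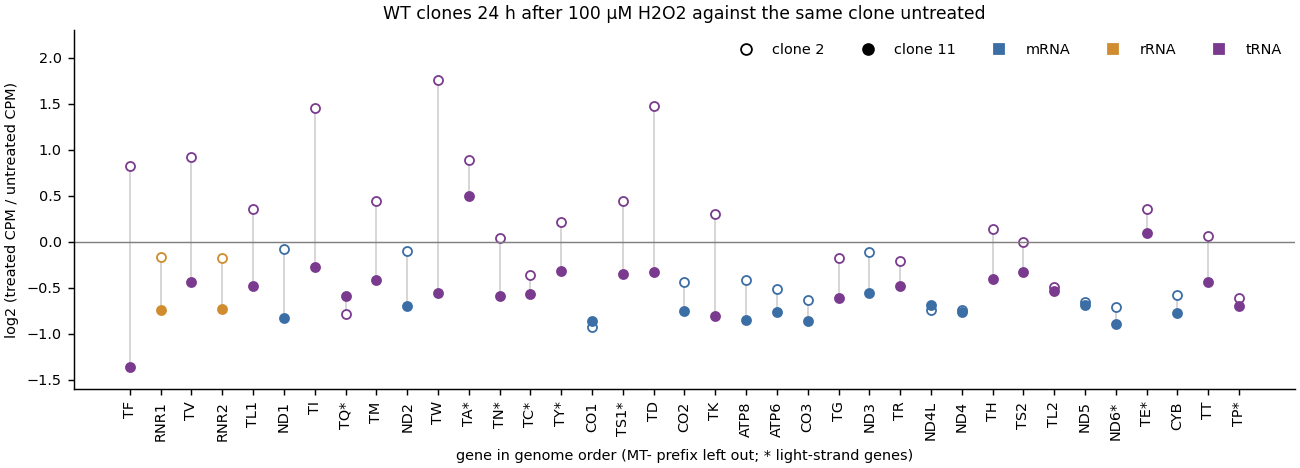
Log2 ratio of H2O2-treated to untreated CPM (y axis) for each of the 37 genes in map order, with 1 point for WT clone 2 and 1 for WT clone 11. All 13 mRNA points lie below 0 in both clones, and 15 of 22 tRNA points lie above 0 in clone 2.

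The nuclear copies were lower after H2O2 too. Of the 8 nuclear copies with enough counts to be tested, 8 were lower after H2O2, 4 of them with a P of at most 0.05, and in the blocked fit MTCO1P12, MTATP6P1, MTCO3P12 and MTND1P23 had adjusted p-values of 0.0040, 0.018, 0.019 and 0.045. MTCO1P12 had 38403 and 22277 counts untreated and 19538 and 12658 treated. Reads of a copy and of its gene cannot be told apart where their bases are identical.

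Of 29 genes tested for mitochondrial DNA transcription and maintenance, none met the study's criterion in any comparison. At a P of 0.05 by edgeR, 2 had a higher level after H2O2 without the block (3.57% of all genes) and 9 with it (9.61%). With the block 1 was lower (10.5%). TFAM, which packages mitochondrial DNA and activates its transcription, had 147 and 135 CPM in untreated WT and 175 and 176 CPM after H2O2, a log2 fold change of 0.33 (SE 0.12, adjusted p = 0.638, and adjusted p = 0.16 with the block). Over the untreated clones TFAM was higher in set A (147, 165, 126 and 159 CPM in WT, MUTYH knockout, OGG1 knockout and DKO) than in the set B clone of the same genotype (135, 124, 110 and 110 CPM). TFAM was among the genes used to order the clones, which favours a shared direction. The share of all genes with a shared direction was not counted, and a relation to the mitochondrial genes was not tested. POLRMT, the mitochondrial RNA polymerase, had 79.9 to 113 CPM in 9 libraries and 208 CPM in MUTYH knockout clone 7, and no comparison gave it a P of at most 0.05.

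Of 27 genes for mitochondrial RNA processing and stability, FASTKD2 alone met the criterion. After H2O2, 5 of the 27 were higher and 1 lower at a P of 0.05 by edgeR with the clone block (9.61% and 10.5% of all genes). Without the block 0 were higher (3.57%) and 0 lower (4.07%). FASTKD2 is an RNA-binding protein of mitochondria that acts on MT-RNR2 and MT-ND6 RNA. Its counts were 780 in WT clone 2 and 63 in WT clone 11, 695 and 76 after H2O2, and 0 to 4 counts in each of the 6 knockout libraries. It met the criterion as lower in MUTYH knockout, OGG1 knockout and DKO by edgeR, with an adjusted p of 1.00 in each, whereas DESeq2 gave an adjusted p of 0.0032, 0.032 and 0.16. MT-RNR2, in the same libraries, had 2935 and 4191 CPM in WT and 2121 to 5693 CPM in the knockouts, a range that overlaps WT. Any part of FASTKD2 in the values of the mitochondrial genes was not tested.

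None of 29 genes for mitochondrial tRNA and rRNA modification met the criterion. After H2O2, 8 of the 29 were higher and 1 lower at a P of 0.05 by edgeR with the clone block (9.61% and 10.5% of all genes). Without the block 2 were higher (3.57%) and 1 lower (4.07%). YRDC, which makes the threonylcarbamoyl precursor of a tRNA modification, had 470 and 488 counts untreated and 751 and 740 after H2O2, and rose by 0.64 (log2) in the blocked fit (adjusted p = 0.032). Among the 6 tested genes of short or non-polyadenylated nuclear RNAs, H2AC6 and H1-2, which encode histones, met the criterion in DKO (1.49 and 1.42 log2, with an adjusted p of 1.00 for both), and VTRNA1-2, a vault RNA with 3 to 16 counts, met it in MUTYH knockout, in the interaction and after H2O2. H2AC6 had 20 and 56 counts in untreated WT and 47 and 153 after H2O2, with an adjusted p of 0.029 in the blocked fit. Any part of RNA selection in the differences between libraries was not tested.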

How the data were processed

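RNA-seq of HAP1 clones was analysed from the gene-level counts deposited by the authors, who extracted RNA with antioxidant and iron chelator present, sequenced on DNBseq, checked reads with FastQC (0.11.9), aligned them with HISAT2 (2.2.1) to GRCh38.p13 and counted with featureCounts on Ensembl annotation. Strand setting, RNA selection and the counting of reads with several alignments are not given in the sources used here. Untreated WT columns occur in both tables with identical values and were used once. Total counts were 22225091 to 22674964 per library.

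Counts were tested with edgeR 4.0.16 in R 4.3.3 (quasi-likelihood F test, TMM, filterByExpr, 2-sided), over 8 untreated libraries for genotypes and 4 WT libraries for H2O2. All 37 genes passed the filter in both fits, and p-values were adjusted by Benjamini-Hochberg over the whole table. DESeq2 1.42.0, other scalings, filters and blocks, and leaving out each library were alternatives. Treated and untreated WT share clones: the clone difference correlated between them (r = 0.694 over 11826 genes), so the clone block pairs the same clones. The sets A and B came from genes other than the 37 with a mean of at least 100 counts. Ratios between 2 libraries used a pseudocount of 0.5 counts. Clones are separate cultures of 1 library each, and p-values of the fits without a block measure the spread between them. A clone or set block takes out the spread that it describes, so p-values of the blocked fits measure the variation left. For H2O2 that remainder comes from only 4 libraries, so little of it is left for each gene.

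All mRNA and rRNA genes, the 5 tRNAs of highest level per length and any tRNA past the study's criterion or an adjusted p of 0.05 were named, with TFAM, POLRMT and list genes past the criterion. MT-TA, MT-TD, MT-TH, MT-TQ and MT-TS2 were chosen after their values were seen. The genes and lists were chosen with earlier results of these data known. Sequences and coordinates were read from GRCh38 with GENCODE annotation. Intervals are exact Poisson intervals at 95% and cover counting error only. The tests were also run on simulated counts. The outcome of that run is not given here, so it lends no weight to the p-values or to how the fits treat the spread between clones.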

Additional observations from a re-analysis of the deposited data

Results flagged for a closer look

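The share of counts in the 37 genes moved in opposite directions in the 2 sets of clones when each knockout was compared with the WT clone of its own set. In set A the log2 ratio to WT clone 2 was -0.42 in MUTYH knockout, -0.20 in OGG1 knockout and -0.24 in DKO. In set B the log2 ratio to WT clone 11 was 0.25, 0.36 and 0.54. Each value rests on 1 library against 1 library, and the difference between the sets was not tested. WT clones 2 and 11 were close, at 5.02% and 5.14%, so the opposite directions restate the spread between the clones of each knockout.

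Heavy-strand tRNAs moved in opposite directions after H2O2 in the 2 WT clones. The log2 ratio of their share was 0.36 in clone 2 and -0.46 in clone 11. This difference between clones was not tested.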

How the results depend on the processing

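The count of the 37 genes past the study's criterion was 0 in each comparison and stayed 0 under other scalings, filters and DESeq2, apart from 1 gene, MT-TA, in DKO with the clone set as a block. With 1 library left out it ranged from 0 to 1 in MUTYH knockout, 0 to 2 in OGG1 knockout, 0 to 1 in DKO, 0 to 1 in DKO against OGG1 knockout, 0 to 1 in the interaction and 0 to 3 after H2O2. For the 3 knockouts and the interaction the highest count came without WT clone 11, which leaves WT clone 2 as the lone WT library, assumed to vary like the other groups. For DKO against OGG1 knockout it came without OGG1 knockout clone 1, and for H2O2 the count was 3 without untreated clone 2, 3 without untreated clone 11 and 1 without treated clone 2. For H2O2, the 11 genes with a P of at most 0.05 became 6 (without treated clone 11) to 16 (without untreated clone 2) with 1 library left out, where 362 of 17727 and 2053 of 17821 genes did so, and became 18 with the replicate block, 18 with the replicate block and scaling on nuclear genes, and 17 with the replicate block and DESeq2 size factors. The 0 genes at an adjusted p of 0.05 became 6 with DESeq2, and 11, 11 and 9 in those 3 blocked fits, where 75, 437, 522 and 312 of 16997 genes reached it. MT-RNR1 ran from -1.03 to 0.24 and MT-ND3 from -0.80 to 0.22, both turning without WT clone 11. Among the genes that fell, MT-CO1 was -0.46 without untreated clone 2, MT-CO2 -0.34 without treated clone 11 and MT-ND5 -0.42 without untreated clone 11, against -0.88, -0.56 and -0.66. In addition, the median for tRNAs after H2O2 ran from -0.74 to 0.73. Of the counts of the 37 genes alone, the log2 change after H2O2 was -0.022 for mRNAs, 0.37 for tRNAs and 0.22 for rRNAs. The SDs within groups were 0.036, 0.36 and 0.34 on that scale. The mRNAs held on average 90.8% of these counts untreated and 89.4% treated, so their share had little room to move. The cause of these changes was not tested.

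Over all genes, those past the criterion numbered 212 in MUTYH knockout, 299 in OGG1 knockout, 317 in DKO, 258 in DKO against OGG1 knockout, 358 in the interaction and 298 after H2O2. Without a filter on low counts they numbered 532, 692, 705, 552, 719 and 510, and with at least 10 counts in every library 86, 123, 134, 111, 218 and 195. With 1 library left out they ranged from 117 to 702, 165 to 806, 260 to 673, 194 to 375, 216 to 795 and 217 to 497. The interaction had 567 with the set as a block. After H2O2 there were 154 with DESeq2, 473 with the replicate block, 481 with the replicate block and scaling on nuclear genes, and 468 with the replicate block and DESeq2 size factors. Low counts limit the tRNAs most, since libraries held 2931 to 8279 tRNA counts. The blocked fits with another scaling, and the alternatives for DKO against OGG1 knockout and for the interaction, were chosen after seeing the data.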
